A study of Mus musculus with 6 samples.

Results

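The genes described here are 10 genes of the NF-κB pathway, chosen by name: the 5 subunits Rela, Relb, Rel, Nfkb1 and Nfkb2, the inhibitors Nfkbia, Nfkbie and Tnfaip3, and the targets Birc3 and Icam1. All 10 were found by symbol among the 17352 genes of the deposited table, and all 10 passed a filter on low values that left 12257 genes. They were measured by RNA sequencing of whole tumours grown under the skin from the mouse pancreatic cancer line Panc02 and taken 4 weeks after implantation. Of the 6 tumours, 3 grew in Anxa1ΔMɸ mice, labelled as lacking annexin A1 in myeloid cells (called deficient; numbered 3, 4 and 5 in their labels), and 3 in Anxa1flox/flox mice, labelled wild type (numbered 2, 3 and 5). HFD stands in every label and is defined nowhere in them. The Cre line that removed Anxa1, and the strain, sex and age of the mice, are not stated in these sources. The tumour cells were the same line in both groups, so the genotypes differ in the host cells and whole-tumour RNA mixes host and tumour cells.

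NF-κB is a family of dimeric transcription factors that wait in the cytoplasm, bound to inhibitor proteins of the IκB family. In the canonical pathway, signals such as TNF, IL-1 or Toll-like receptor ligands activate the IKK kinases, IκB is destroyed, and dimers of RelA or c-Rel with p50 enter the nucleus. In the non-canonical pathway, receptors such as CD40 and the lymphotoxin β receptor lead to processing of p100 to p52, which pairs with RelB. Several of the genes induced are brakes on the pathway itself, among them Nfkbia, Nfkbie and Tnfaip3, and induced subunit genes such as Nfkb2 and Relb add a slower layer. In tumours the pathway is active in cancer cells as well as in macrophages, lymphocytes and vessels. Nuclear entry is set by protein turnover, so RNA levels of the subunits do not measure NF-κB activity.

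The libraries were alike in depth. The spacing of the low values placed all 6 within 9.63% of each other in relative depth. The keratin Krt8, which marks epithelial tumour cells, was abundant, at 197.7 to 266.4 FPKM in deficient tumours against 205.6 to 259.0 FPKM in wild-type tumours. By contrast, the epithelial adhesion gene Epcam stayed at or below 5.47 FPKM in deficient and 0.324 FPKM in wild-type tumours. Anxa1 itself averaged 290.2 ± 40.2 FPKM in deficient and 363.5 ± 27.3 FPKM in wild-type tumours (SD, n = 3 each), which did not pass the threshold (limma adjusted p = 0.268). Its groups did not overlap, at 249.9 to 330.2 FPKM in deficient and 341.8 to 394.2 FPKM in wild-type tumours. Groups did not overlap for 20.1% of all tested genes. The summed level of 4 Y-linked genes was 0.00291 to 0.239 FPKM in deficient and 5.21 to 10.6 FPKM in wild-type tumours, so these transcripts separated the same libraries as the genotype label. The sex of the mice is not stated. The part of these transcripts in any result, or of a difference in sex between the groups, cannot be told apart from that of genotype. In whole tumours, a lower number of cells of a type and less RNA per cell cannot be told apart.

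None of the 10 NF-κB genes passed the test between deficient and wild-type tumours, and Icam1 came closest. By limma on log2(FPKM + 1), 0 of the 10 genes passed an adjusted p of 0.05, where 1.21% of all tested genes passed (0.979% or 120 genes higher, and 0.228% or 28 genes lower). At an unadjusted p under 0.05 there was 1, Icam1, or 10% of the 10 genes, beside 15.1% of all tested genes. Icam1 was also the 1 gene of the 10 whose groups did not overlap, beside 20.1% of all tested genes. Neither share was above that of all genes. The median log2 fold change of the 10 genes was 0.07, beside 0.02 over all tested genes. It was positive for 8 of the 10 genes (80%), beside 54.7% of all tested genes. The other 9 genes had log2 fold changes between -0.07 and 0.19, with adjusted p of 0.688 to 0.999.

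**Figure D1:**
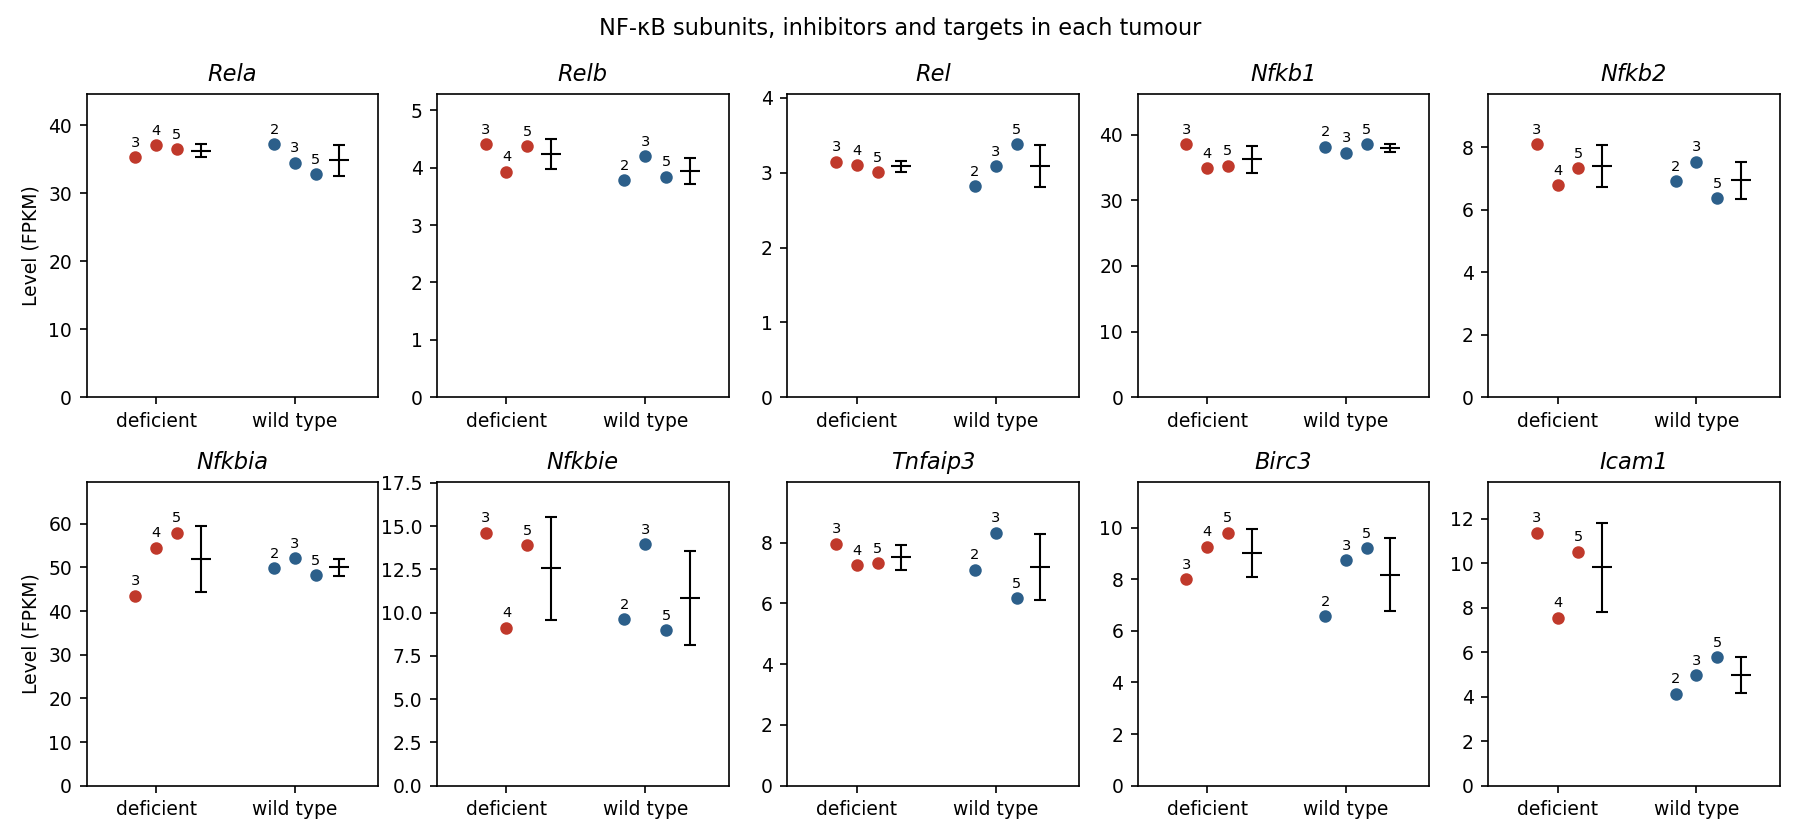
Level of each of the 10 NF-κB genes (FPKM, linear axis from 0) in the 3 deficient tumours (red, left) and the 3 wild-type tumours (blue, right), with tumour numbers beside the points and the mean ± SD as black bars. Groups overlap for 9 genes, and for Icam1 the lowest deficient tumour (7.54 FPKM) lies above the highest wild-type tumour (5.77 FPKM).

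FPKM is a level per length of transcript and can be ranked across genes. Nfkbia stood highest, at a mean of 52.02 FPKM in deficient and 50.1 FPKM in wild-type tumours, followed by Rela and Nfkb1, whose ranges overlapped in both groups. A gap then separated these 3 from the remaining 7 genes, with means of 3.09 to 12.6 FPKM in deficient and 3.10 to 10.9 FPKM in wild-type tumours. Relb and Rel were the lowest in both groups, except that the range of Relb overlapped that of Icam1 in wild-type tumours. Icam1 ranked 5 of 10 in deficient and 8 of 10 in wild-type tumours.

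Among the subunits, Rela encodes RelA (p65), the main transactivating partner of the canonical dimer. Its level was 35.3, 37.1 and 36.5 FPKM in deficient 3, 4 and 5, against 37.3, 34.5 and 32.8 FPKM in wild type 2, 3 and 5. The groups overlapped, and the highest of the 6 values was in a wild-type tumour. The log2 fold change was 0.06 (SE 0.08, 95% interval -0.13 to 0.24, limma adjusted p = 0.783). Nfkb1 encodes p105, the precursor of p50. It had 38.5, 34.9 and 35.3 FPKM in deficient tumours and 38.1, 37.2 and 38.5 FPKM in wild-type tumours. Deficient 4 and 5 lay below all wild-type tumours and deficient 3 just above them, with a log2 fold change of -0.07 (SE 0.08, 95% interval -0.24 to 0.11, limma adjusted p = 0.734).

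The non-canonical subunits were lower in level and as close between the groups. Nfkb2, the gene of p100 and p52, had 8.09, 6.77 and 7.32 FPKM in deficient tumours and 6.90, 7.53 and 6.36 FPKM in wild-type tumours. Its log2 fold change was 0.08 (SE 0.10, limma adjusted p = 0.768). Relb, the usual partner of p52, had 4.41, 3.93 and 4.37 FPKM in deficient and 3.78, 4.20 and 3.84 FPKM in wild-type tumours, a log2 fold change of 0.08 (SE 0.10, limma adjusted p = 0.736). Both genes overlapped between groups, and wild type 3 was the highest wild-type tumour for each. Rel encodes c-Rel, best known from lymphoid and myeloid cells. Its level was 3.15, 3.11 and 3.01 FPKM in deficient tumours, all inside the wild-type range of 2.82, 3.08 and 3.38 FPKM. Its log2 fold change was -0.00060 (SE 0.10, 95% interval -0.23 to 0.23, limma adjusted p = 0.999). For the 5 subunits the 95% intervals together ran from 0.844-fold to 1.25-fold on the scale of FPKM + 1. With 3 tumours a group, differences inside these intervals are not excluded. The intervals are not adjusted over genes and are no limit of detection, as the larger difference of Icam1 did not pass either.

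The make-up of the subunit pool was also close. Rela and Nfkb1 made up 41.6 ± 1.97% and 41.5 ± 1.35% of the summed subunit FPKM in deficient tumours, compared with 40.1 ± 1.65% and 43.8 ± 1.38% among wild-type tumours (SD over 3 tumours each). Nfkb2, Relb and Rel held 8.47%, 4.85% and 3.54% in deficient and 7.99%, 4.54% and 3.57% in wild-type tumours. The ratio of Nfkb2 to Nfkb1 within a library was 0.210, 0.194 and 0.207 in deficient tumours and 0.181, 0.202 and 0.165 in wild-type tumours. Wild type 3 lay above deficient 4, and the difference of 0.16 in log2 ratio gave an exact two-sided permutation p of 0.2 (0.6 after Benjamini-Hochberg adjustment over 3 ratios). The log2 ratio of Relb to Rela differed by 0.04 (exact permutation p = 0.6, adjusted 0.7) and that of Rel to Rela by -0.06 (exact permutation p = 0.7, adjusted 0.7). With 3 against 3 tumours the smallest p this test allows is 0.1, and the sign of the Relb and Rel ratios turned when single libraries were left out.

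The IκB genes Nfkbia and Nfkbie overlapped between the groups. Nfkbia encodes IκBα, the inhibitor that NF-κB itself re-induces within the canonical loop. It had 43.5, 54.5 and 58.0 FPKM in deficient tumours and 49.9, 52.1 and 48.2 FPKM in wild-type tumours. Deficient tumours held both the lowest and the highest values, and the wild-type tumours lay between. The log2 fold change was 0.04 (SE 0.11, 95% interval -0.22 to 0.31, limma adjusted p = 0.893), and its sign turned with libraries rescaled to equal totals (-0.0081), under quantile normalization (-0.01) and without deficient 5 (-0.04).

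Nfkbie encodes IκBε, a slower inhibitor also induced by NF-κB. Its level was 14.6, 9.14 and 13.9 FPKM in deficient 3, 4 and 5, against 9.62, 14.0 and 9.0 FPKM in wild type 2, 3 and 5. Deficient 3, deficient 5 and wild type 3 stood between 13.9 and 14.6 FPKM and the other three tumours between 9.0 and 9.62 FPKM, with no value between. The spacing of the deposited values corresponds to 854 to 1336 fragments of Nfkbie per library. The log2 fold change was 0.19 (SE 0.21, 95% interval -0.29 to 0.67, limma adjusted p = 0.717), the widest interval of the 10 genes.

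Tnfaip3 encodes A20, a ubiquitin-editing enzyme that shuts down signalling upstream of IKK. It had 7.97, 7.25 and 7.32 FPKM in deficient tumours and 7.11, 8.33 and 6.17 FPKM in wild-type tumours, so all deficient values lay inside the wild-type range. The log2 fold change was 0.06 (SE 0.12, limma adjusted p = 0.856) and its sign turned without wild type 5 (-0.03). Birc3 encodes cIAP2, an anti-apoptotic ubiquitin ligase that is both a target of NF-κB and a part of TNF receptor signalling. It had 7.99, 9.25 and 9.80 FPKM in deficient tumours and 6.56, 8.73 and 9.21 FPKM in wild-type tumours. Wild type 2 was the lowest and the other five tumours overlapped, with a log2 fold change of 0.14 (SE 0.14, limma adjusted p = 0.688).

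**Figure D2:**
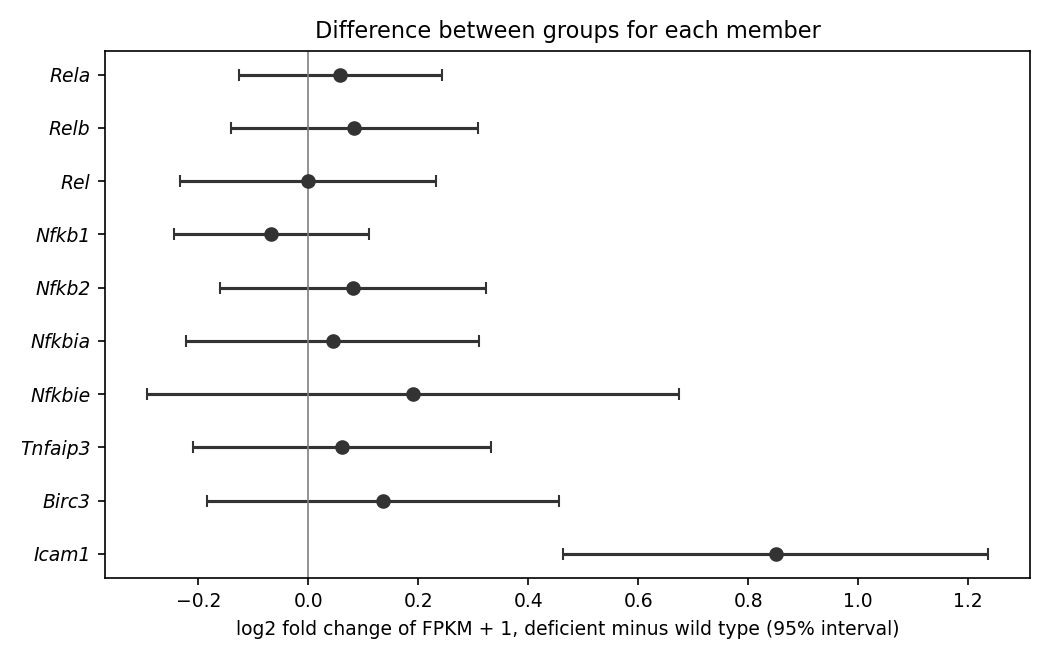
Log2 fold change of FPKM + 1 (deficient minus wild type, horizontal axis) of the 10 genes, with points for the limma estimate and bars for its 95% interval. The interval of Icam1 runs from 0.46 to 1.24 and those of the other 9 genes include 0.

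Icam1 encodes the adhesion molecule ICAM-1, which binds the integrin LFA-1 on leukocytes and is induced on endothelial, epithelial and myeloid cells by TNF, IL-1 and interferon γ. Its level was 11.4, 7.54 and 10.5 FPKM in deficient 3, 4 and 5, against 4.14, 4.98 and 5.77 FPKM in wild type 2, 3 and 5. All deficient tumours lay above all wild-type tumours, and deficient 4 was the closest to them. The means were 9.81 ± 2.01 FPKM and 4.96 ± 0.818 FPKM (SD, n = 3), a ratio of 1.98. These values correspond to 798 to 1098 fragments per deficient library and 421 to 579 per wild-type library. The log2 fold change was 0.85 (SE 0.17, 95% interval 0.46 to 1.24), with an unadjusted p of 0.00103 that did not pass over all genes (limma adjusted p = 0.0659). Over 17 other settings the adjusted p ranged from 0.0108 to 0.230 and the log2 fold change from 0.74 to 1.01. Without deficient 4 the log2 fold change was 1.01 and Icam1 passed (limma adjusted p = 0.0195).

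The integrin chains that bind ICAM-1 were looked at after the values of Icam1 had been seen. Itgal, the α chain of LFA-1, had 11.6, 5.69 and 10.4 FPKM in deficient and 4.61, 3.68 and 3.92 FPKM in wild-type tumours (log2 fold change 0.96, limma adjusted p = 0.109). Itgb2, the β2 chain shared by leukocyte integrins, had 72.9, 50.3 and 69.3 FPKM in deficient and 39.0, 30.4 and 39.2 FPKM in wild-type tumours (log2 fold change 0.80, limma adjusted p = 0.0715). For both chains, as for Icam1, the groups did not overlap and deficient 4 was the lowest deficient tumour. Icam2, a related ligand of vessels and leukocytes, overlapped between groups (log2 fold change 0.23, limma adjusted p = 0.672).

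Markers of 9 cell types were read in the same libraries, since whole tumours mix these cells. The summed level of 12 macrophage and monocyte markers was 4496, 2770 and 5354 FPKM in deficient 3, 4 and 5, against 3164, 2854 and 2977 FPKM in wild type 2, 3 and 5, and Lyz2 alone held 69.2% to 80.1% of it. Without Lyz2 the sum was 896.6, 852.0 and 1148 FPKM in deficient and 752.8, 835.5 and 767.3 FPKM in wild-type tumours, so the groups overlapped with Lyz2 and not without it. Of these 12 genes, 11 had a positive log2 fold change and 2, Ly6c2 and Ccr2, rose past the threshold. The sum of 9 T cell markers was 70.1, 51.5 and 82.4 FPKM in deficient and 32.1, 28.1 and 41.6 FPKM in wild-type tumours, without overlap. Cd8a, Cd8b1 and Lck were past the threshold as higher. Of the 9 genes, 8 had a positive log2 fold change, and Cd4 went the other way (-0.07). B cell and plasma cell markers summed to 20.8, 69.7 and 112.9 FPKM in deficient and 9.73, 7.26 and 15.5 FPKM in wild-type tumours, again without overlap, and Cd79b and Mzb1 rose among the 4 genes tested. Of all tested genes, 0.979% passed as higher.

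The sums of the other cell types overlapped between the groups, and none of their genes passed. Without the highest gene of each list, the adipocyte and dendritic cell sums no longer overlapped, and the others still did. Without Fabp4 the adipocyte sum was 97.0, 46.9 and 226.6 FPKM in deficient and 16.3, 1.49 and 28.2 FPKM in wild-type tumours. Without Fscn1 the dendritic cell sum was 29.0, 22.1 and 27.0 FPKM in deficient and 15.4, 16.1 and 20.4 FPKM in wild-type tumours. For 8 adipocyte markers the sum was 252.1, 138.6 and 513.0 FPKM in deficient and 90.5, 51.5 and 146.9 FPKM in wild-type tumours, and 8 of 8 genes had a positive log2 fold change, beside 54.7% of all tested genes. Fibroblast markers had 2138, 2640 and 1707 FPKM in deficient and 1936, 4079 and 5517 FPKM in wild-type tumours, with 7 of 8 genes negative and a list median of -0.60. Tumour epithelial markers had 611.4, 574.6 and 463.6 FPKM in deficient and 552.1, 505.3 and 453.1 FPKM in wild-type tumours, with 7 of 8 genes positive and a median of 0.41. The dendritic cell sum was 46.8 to 60.3 FPKM in deficient and 39.6 to 52.4 FPKM in wild-type tumours, and the neutrophil sum was 167.5 to 345.9 FPKM in deficient and 160.0 to 281.5 FPKM in wild-type tumours. The endothelial sum was 55.1 to 92.2 FPKM in deficient and 54.0 to 76.3 FPKM in wild-type tumours. At an unadjusted p under 0.05 (limma) there were 6 of 8 adipocyte, 4 of 8 dendritic cell, 3 of 8 fibroblast and 3 of 8 epithelial genes. At the same threshold there were 1 of 6 tested neutrophil genes (16.7%) and 0 of 8 endothelial genes, beside 15.1% of all tested genes. Deficient 4, the lowest deficient tumour for Icam1, was also the lowest deficient tumour in 6 of the 9 sums, but the highest in the fibroblast sum and in the middle for B cell and plasma cell and for epithelial markers. The part of these cells in the level of Icam1 was not tested.

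**Figure D3:**
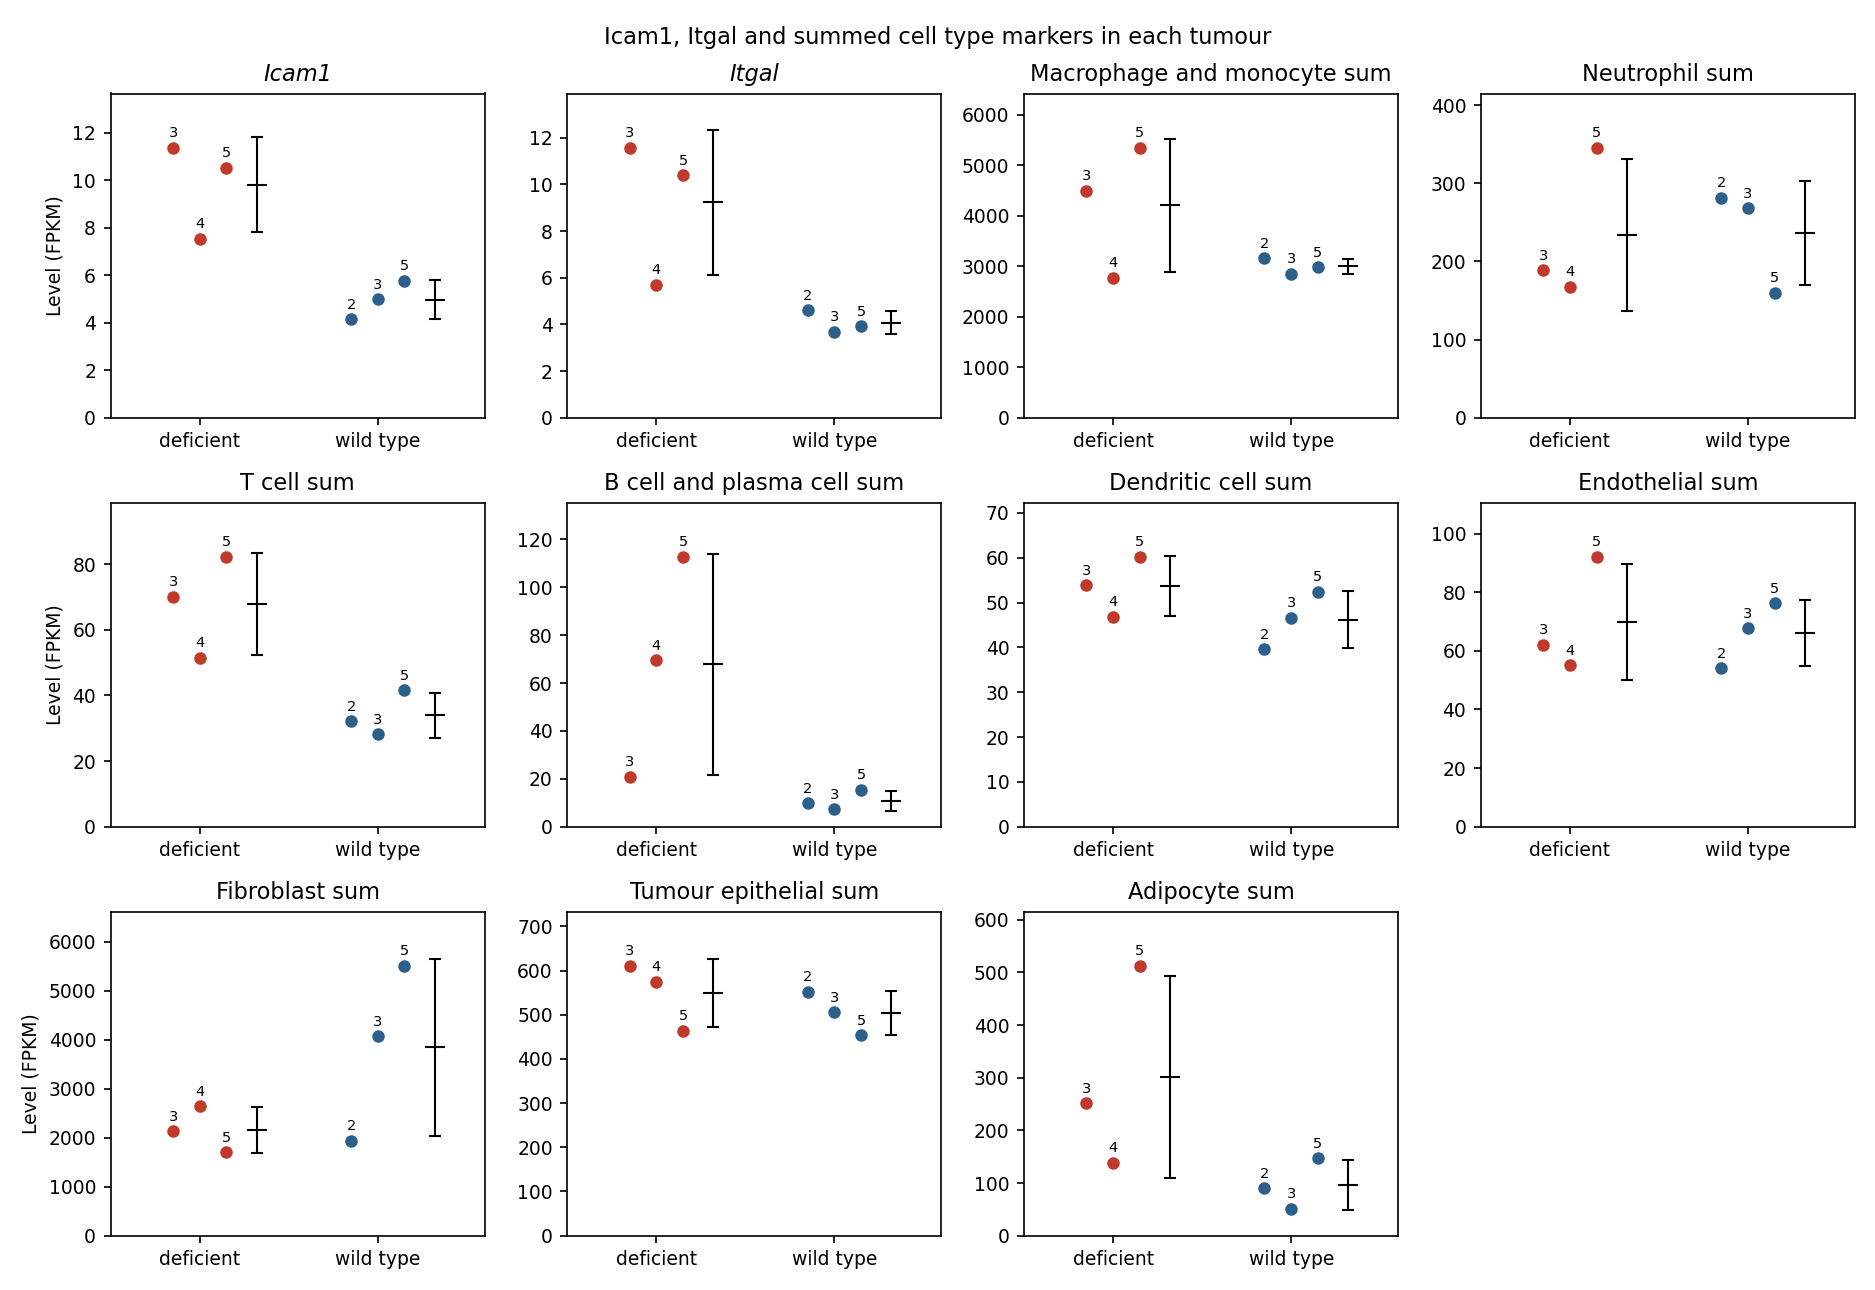
Level of Icam1, Itgal and the summed markers of 9 cell types (FPKM, linear axes from 0) in deficient (red, left) and wild-type tumours (blue, right), with tumour numbers and the mean ± SD. Groups do not overlap for Icam1, Itgal and the sums of T cell and of B cell and plasma cell markers, whereas the endothelial sum runs from 55.1 to 92.2 FPKM in deficient and from 54.0 to 76.3 FPKM in wild-type tumours.

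The promoters of 3 of these targets hold the same short κB-type sequence, shown as the DNA upstream of the gene that came closest to the threshold and of a pair of inhibitors. Each line gives the 250 bases before the annotated start of the gene, 5′ to 3′ on the gene's strand, from RefSeq (GRCm38.p6), with GGAAATTCC or its reverse complement in capitals.
Icam1, chr9:21015690-21015939, plus strand: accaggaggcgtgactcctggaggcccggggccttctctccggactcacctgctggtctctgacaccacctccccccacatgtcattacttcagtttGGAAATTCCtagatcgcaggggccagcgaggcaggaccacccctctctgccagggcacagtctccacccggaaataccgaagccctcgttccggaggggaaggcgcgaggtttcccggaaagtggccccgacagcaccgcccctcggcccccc
Nfkbia, chr12:55492648-55492897, minus strand: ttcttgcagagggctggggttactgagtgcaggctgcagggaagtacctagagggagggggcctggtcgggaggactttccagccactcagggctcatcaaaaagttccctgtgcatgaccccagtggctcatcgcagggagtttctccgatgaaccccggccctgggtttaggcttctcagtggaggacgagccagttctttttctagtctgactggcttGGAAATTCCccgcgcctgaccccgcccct
Tnfaip3, chr10:19015411-19015660, minus strand: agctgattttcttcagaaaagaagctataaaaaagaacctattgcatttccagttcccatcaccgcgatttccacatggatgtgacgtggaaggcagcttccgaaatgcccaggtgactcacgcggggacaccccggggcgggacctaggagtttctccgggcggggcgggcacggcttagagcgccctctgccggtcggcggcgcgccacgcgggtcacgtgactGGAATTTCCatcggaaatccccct
The match began 153 bases upstream of the start in Icam1, 29 in Nfkbia and 24 in Tnfaip3, where it lay on the opposite strand. In windows from 250 bases before to 50 bases after the start, searched on both strands, GGAAATTCC was found in 0.317% of 32851 windows and in windows of 3 of the 8 genes present in that table. These letters were picked after several patterns had been tried on the windows of these genes, so that they are shared by these 3 is no result. The general κB consensus, which can overlap GGAAATTCC when a G precedes it on either strand, was found in 8.46% of all windows and in windows of 5 of the 8 genes, namely Nfkb2, Nfkbia, Nfkbie, Rel and Tnfaip3. Icam1 had no match to the consensus in its window.

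Across the 6 tumours the 10 genes did not share 1 pattern. After centring log2(FPKM + 1) on the mean of each gene, the average over the 10 genes was 0.11, -0.01 and 0.12 in deficient 3, 4 and 5, against -0.14, 0.01 and -0.09 in wild type 2, 3 and 5. Icam1 spanned from 0.64 in deficient 3 to -0.63 in wild type 2, and weighs most in this average. Nearest to each other were Relb and Nfkb2, with a mean absolute difference between centred profiles of 0.0494 over the 6 libraries, and Tnfaip3 was nearest to Nfkb2 (0.0517). Rel and Nfkb1 were each other's nearest (0.0601), and Icam1 was the farthest from any other, at 0.358 from Birc3. This measure depends on how much a gene varies, so genes with small spread lie near each other without sharing a pattern. Rel and Nfkb1 differed in sign in deficient 4, wild type 2 and wild type 3, and had the same sign in the other tumours. Among tested genes outside the lists used here, those closest to the average profile were Man1b1 (0.0201), Atmin (0.0232), Wdr83 (0.0247), Hdhd5 (0.0257) and Nudt17 (0.0262).

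**Figure D4:**
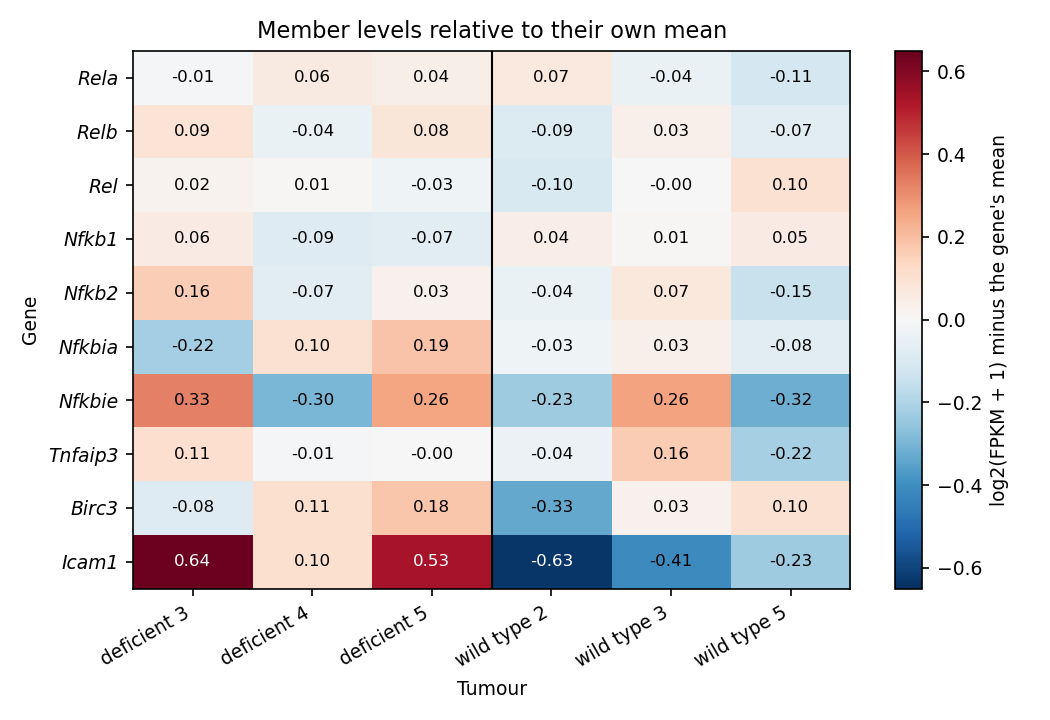
Log2(FPKM + 1) of each of the 10 genes (rows) in each tumour (columns, deficient left of the black line and wild type right of it) after subtracting the mean of the gene, with red for higher and blue for lower. Icam1 is the only one of the 10 rows that is positive in all 3 deficient and negative in all 3 wild-type tumours, and Nfkbie is high in deficient 3, deficient 5 and wild type 3.

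The rest of the pathway was read from 5 lists of receptors, ligands, kinases and adaptors, inhibitors and textbook targets, which hold 133 genes of which 120 were tested. In these lists 3 genes rose and 0 fell past the threshold, or 2.5% of the genes tested beside 1.21% of all tested genes. Of the 120 tested genes, groups did not overlap for 22 genes higher and 2 genes lower in deficient tumours. Of all 12257 tested genes, they did not overlap for 1447 genes higher (11.8%) and 1018 genes lower (8.31%). The median log2 fold change was 0.12, beside 0.02 over all tested genes. The counts of each list below stand beside 54.7% of all tested genes with a positive log2 fold change and 15.1% at an unadjusted p under 0.05.

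**Figure D5:**
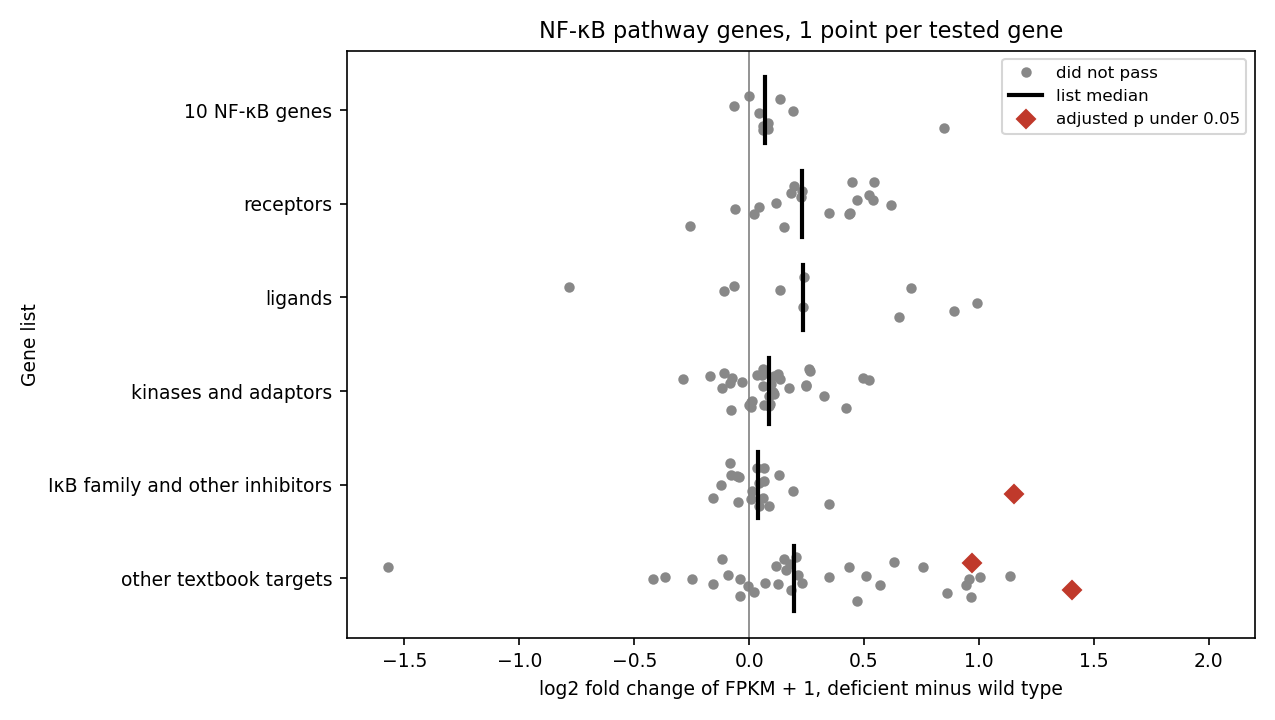
Log2 fold change of FPKM + 1 (deficient minus wild type, horizontal axis) for every tested gene of the 10 NF-κB genes and of the 5 pathway lists (rows; vertical scatter within a row has no meaning). Black bars are list medians, grey points did not pass the threshold and the 3 red diamonds did: Tnip3 among the inhibitors and Tap1 and Psmb9 among the targets.

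Of 21 receptors that feed NF-κB, 19 were tested, 17 (89.5%) had a positive log2 fold change and 0 passed (6, or 31.6%, at an unadjusted p under 0.05, limma), with a list median of 0.23. Cd40, a receptor of antigen-presenting cells that signals through both pathways, had 4.35, 4.41 and 4.69 FPKM in deficient and 2.93, 2.33 and 3.09 FPKM in wild-type tumours. The groups did not overlap, and the log2 fold change of 0.54 (SE 0.11) had a limma adjusted p of 0.0787. The endosomal DNA receptor Tlr9 had 5.07, 3.58 and 4.67 FPKM in deficient and 2.73, 1.95 and 2.99 FPKM in wild-type tumours (log2 fold change 0.62, limma adjusted p = 0.135). Tnfrsf12a, the receptor of TWEAK, averaged 93.5 ± 13.3 FPKM in deficient and 68.8 ± 8.68 FPKM in wild-type tumours (SD, n = 3 each; limma adjusted p = 0.196). Without deficient 4, Tlr2 passed in this list, and it is named only for that reason, after its value was seen.

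Of 14 ligands, 10 were tested, 7 (70%) had a positive log2 fold change and 0 passed (5, or 50%, at an unadjusted p under 0.05, limma), with a list median of 0.24. Tnfsf13b, the B cell survival factor BAFF, had 8.25, 7.64 and 9.57 FPKM in deficient and 5.90, 3.92 and 2.91 FPKM in wild-type tumours, without overlap (log2 fold change 0.89, SE 0.20, limma adjusted p = 0.0975). Il33, a nuclear alarmin of stromal and epithelial cells, went the other way, with 65.3, 83.1 and 41.7 FPKM in deficient and 117.3, 101.4 and 99.2 FPKM in wild-type tumours (log2 fold change -0.78, SE 0.22, limma adjusted p = 0.168). Tnf, the prototype activator of the canonical pathway, stood at 2.29, 1.52 and 1.69 FPKM in deficient and 0.628, 1.12 and 0.497 FPKM in wild-type tumours. Its groups did not overlap either, and it did not pass (log2 fold change 0.70, SE 0.17, limma adjusted p = 0.115). Left out singly, libraries changed these calls: without deficient 4, Ltb passed as higher and Il33 as lower, and without wild type 2, Tnfsf13b passed as higher. Ltb, too, is named after its value was seen.

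Among 35 kinases and adaptors, all tested, 26 (74.3%) had a positive log2 fold change and 0 passed (3, or 8.57%, at an unadjusted p under 0.05, limma), with a list median of 0.09. The smallest p belonged to Ikbke, an IKK-related kinase, with 4.94 ± 1.02 FPKM in deficient and 3.18 ± 0.377 FPKM in wild-type tumours (SD, n = 3 each; log2 fold change 0.49, limma adjusted p = 0.187). The adaptors Myd88 (log2 fold change 0.32, limma adjusted p = 0.236) and Card9 (0.26, limma adjusted p = 0.304) followed. Groups did not overlap for any of these 3 genes, which were picked by their small p. In the list of 35, groups did not overlap for 3 genes higher and 1 gene lower. Of all tested genes, 11.8% were higher and 8.31% lower without overlap. The subunits of the IKK complex, named for their role, stayed close: Chuk (IKKα), Ikbkb (IKKβ) and Ikbkg (NEMO) had log2 fold changes of 0.09, 0.11 and 0.10, and Map3k14, the NIK kinase of the non-canonical pathway, -0.08.

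Of 20 further IκB proteins and inhibitors, all tested, Tnip3 rose and the other 19 did not pass, with a list median of 0.04. A positive log2 fold change was found for 13 (65%), and 2 (10%) had an unadjusted p under 0.05 (limma). Groups did not overlap for 2 genes higher, Tnip3 and Nfkbid, and 0 lower, beside 20.1% of all tested genes in either direction. Nfkbid, named after its value was seen, had a log2 fold change of 0.35 (limma adjusted p = 0.284). Tnip3 encodes ABIN-3, a partner of A20. It had 4.77, 4.74 and 6.55 FPKM in deficient and 2.21, 1.90 and 1.45 FPKM in wild-type tumours. The log2 fold change was 1.15 (SE 0.15, 95% interval 0.80 to 1.51, limma adjusted p = 0.0273), higher in 3 of 3 deficient tumours than in any wild-type tumour. With single libraries left out the adjusted p of Tnip3 ran from 0.0204 to 0.135, and it was 0.105 with no filter on low values, and the call was lost without deficient 3, deficient 5, wild type 3 or wild type 5. Nfkbib, the gene of IκBβ, which belongs to the same family as Nfkbia and Nfkbie, had a log2 fold change of 0.09 (limma adjusted p = 0.676).

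Of 43 textbook targets, 36 were tested, 26 (72.2%) had a positive log2 fold change and 2 rose past the threshold (13, or 36.1%, at an unadjusted p under 0.05, limma), with a list median of 0.19. These 2 were Psmb9 and Tap1, an immunoproteasome subunit and a peptide transporter of antigen presentation, which are also known as interferon γ targets. Psmb9 had 50.4, 51.4 and 53.8 FPKM in deficient and 21.9, 18.1 and 17.1 FPKM in wild-type tumours, and Tap1 had 42.3, 45.8 and 43.3 FPKM in deficient and 23.8, 23.5 and 18.6 FPKM in wild-type tumours. With single libraries left out, the limma adjusted p was 0.0029 to 0.0481 for Psmb9 and 0.0181 to 0.0688 for Tap1. Tap1 did not pass when deficient 3 or wild type 3 was left out, nor when low genes were kept in the test (limma adjusted p = 0.0608). Without deficient 4, the mitochondrial superoxide dismutase Sod2 passed as higher (log2 fold change 0.57, limma adjusted p = 0.0372), and the anti-apoptotic gene Bcl2l1 (-0.60, limma adjusted p = 0.0300) and the matrix protease Mmp9 (-2.48, limma adjusted p = 0.0218) passed as lower. With all libraries their adjusted p was 0.0988, 0.267 and 0.366, and these 3 genes are named after their values were seen. Vcam1, an adhesion molecule often induced together with Icam1, had 143.6, 95.4 and 156.1 FPKM in deficient and 135.1, 103.6 and 109.6 FPKM in wild-type tumours (log2 fold change 0.16, 95% interval -0.29 to 0.60, limma adjusted p = 0.748). Its groups overlapped, with the lowest value in deficient 4.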

How the data were processed

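Whole-tumour RNA was read on a NovaSeq instrument in pairs of 150 bp, per the labels' protocols. Tools listed in the submitters' processing notes, with no role stated, are HTSeq, HISAT2 and R 3.2.0, and no genome build is stated there. The authors deposited 1 table of 17352 genes by 6 libraries. Its values are taken as FPKM deposited by the authors, judged from the values, because the header names no unit.

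The test covered genes whose mean was at least 0.5 FPKM. A model with a group term was fitted to log2(FPKM + 1) of these 12257 genes with limma 3.58.1 in R 4.3.3 (variance trend, two-sided, Benjamini-Hochberg over all tested genes, threshold 0.05), after a test on simulated data. Fold changes on this scale understate changes of low genes. The labels do not say that samples of a group came from separate mice, so p-values measure the spread between these samples. Fragments behind each of the 10 genes were recovered as the smallest whole multiples of a common step that fitted all 6 libraries (tolerance 0.001), which was possible for 10 of 10. Named pathway genes were those past the threshold in each list, or else the 3 with the smallest p. The 10 genes, the lists and the tests were chosen with earlier results of these data known. Alternatives were other pseudocounts, filters and scalings, no variance trend, leaving out each library in turn and a replicate block.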

Additional observations from a re-analysis of the deposited data

How the results depend on the processing

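Over 17 settings for each of the 10 genes, Icam1 passed the threshold in 2 (without deficient 4 and with the replicate block), and 4 genes with small differences changed sign: Rel (6.92e-06 with pseudocount 0.1, and -0.0499 to 0.0495 with single libraries left out), Nfkbia (-0.0081 with equal totals, -0.0121 with quantile normalization, and -0.0374 to 0.166 with single libraries left out), Tnfaip3 (-0.0319 to 0.158 with single libraries left out) and Birc3 (-0.0159 with the replicate block). The cause was not tested. With the replicate block, deficient 4 and wild type 2 each stood alone under their number. The block thus compared deficient 3 and 5 with wild type 3 and 5 only. Both settings in which Icam1 passed therefore left deficient 4 out of the difference, and they are not separate support. The count of the 10 genes called higher was 0 in the main setting, 0 to 1 with single libraries left out, and 1 with the replicate block. With single libraries left out, the log2 ratio of Relb to Rela differed by -0.0343 to 0.113 between groups and that of Rel to Rela by -0.175 to 0.0487.

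Over all genes, 120 were called higher and 28 lower. With single libraries left out these counts ran from 7 to 270 and from 3 to 66; with no filter they were 10 and 8. Equal totals gave 66 higher and quantile normalization 74. The replicate block gave 633 higher and 354 lower. The groups share only the numbers 3 and 5, so the block compared deficient 3 and 5 with wild type 3 and 5 alone. The correlation of deviations was -0.0897 for number 3 and -0.00847 for number 5. Between libraries with unlike numbers it ran from -0.208 to 0.224. With so few libraries these values cannot tell whether the numbers pair the tumours. Under the block Icam1 had a log2 fold change of 0.91 (limma adjusted p = 0.0108).

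With 3 tumours a group, differences of the size of the standard errors given could not be resolved, and some larger ones did not pass either. Even the log2 fold change of Icam1, 0.85 with an SE of 0.17, did not pass over all genes in the main setting. The unit of the values is inferred.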
